A study of Mus musculus with 6 samples.

Results

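The genes described here are 5 fibroblast growth factor (FGF) ligands, *Fgf1*, *Fgf7*, *Fgf9*, *Fgf10* and *Fgf18*, and 5 receptor genes, *Fgfr1*, *Fgfr2*, *Fgfr3*, *Fgfr4* and *Fgfrl1*, in whole mouse lungs at 12.5 *dpc* (days post coitus). They were chosen by symbol, and each of the 10 had 1 locus among the 24402 loci of the authors' table of all loci. RNA came from 3 samples of wild type lungs (control), which carry no Cre, and 3 samples of lungs with the genotype Yap-flox/flox; Shh-Cre/+ (*Yap* mutant), all labelled as strain C57BL/6. Cre made from the *Shh* locus removes *Yap* from the epithelium and leaves it in the mesenchyme, and the Cre allele takes the place of a working copy of *Shh*. For each genotype the authors' table gives 1 value in FPKM (fragment counts scaled by transcript length and library size), so the values per library, the spread between libraries and the depth are unknown here, and these values allow no test. The p-values that the authors deposited beside them were not used. A difference is therefore given as the ratio of the authors' 2 group values, with no p.

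The targeted gene *Yap1* was at 76.1 FPKM in control lungs and 65.6 FPKM in the mutants, a value that includes the mesenchyme, where it is intact. The 4 Y-linked genes examined were at most 0.0163 FPKM in control lungs, while the mutants had 4.61 to 16.5 FPKM. Genotype and the sex of the embryos therefore cannot be told apart in these group values.

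FGF ligands are secreted proteins that bind receptor tyrosine kinases together with heparan sulphate. In the budding lung, FGF10 is made by the mesenchyme around the bud tips and acts on the epithelium through the epithelial splice form of FGFR2, and buds do not form without it. FGF9 is made by the mesothelium and epithelium and acts mainly on mesenchymal receptors, and SHH from the epithelium is known to restrain *Fgf10* in the mesenchyme.

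In *Yap* mutant lungs *Fgf10* was listed at 2.54 times its control value, *Fgfr3* was 2.74 times lower and *Fgf18* was 1.62 times lower. The main receptor genes were less different, with *Fgfr1* nearly level and *Fgfr2* 1.32 times lower. A locus was counted as past the fold when its values differed at least 1.5-fold and averaged at least 1 FPKM. Of the 10 genes, 9 had that average, and 3 of them were past the fold, 2 lower and 1 higher, where 7.96% of 12701 loci were past it in either direction, 3.42% lower and 4.54% higher. Without regard to size, 6 of the 9 were lower and 3 higher, beside 51.8% of all loci that were lower. With a log2 difference of 0.32 as the limit, 5 members were past it, 3 lower and 2 higher, beside 16.8% of all loci, 6.92% lower and 9.92% higher. At 2-fold 1 member was lower and 1 higher, beside 3.5% of all loci, 1.34% lower and 2.17% higher. The median log2 ratio of the 9 was -0.15, and that of all loci was -0.01.

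**Figure D1:**
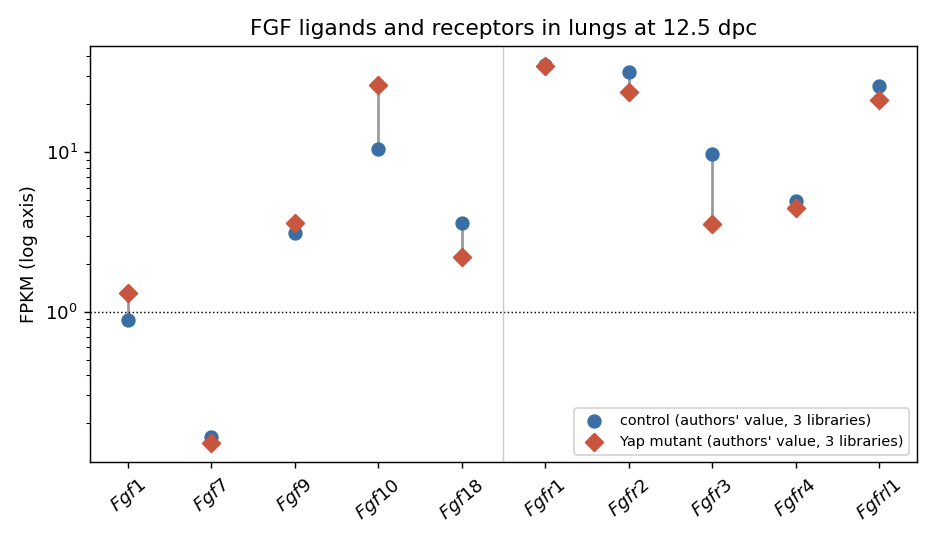
FPKM on a log axis of each FGF ligand (left of the grey line) and receptor gene (right) in control (circles) and *Yap* mutant lungs (diamonds), each point being the authors' value for 3 libraries, with no error known. *Fgf10* goes up from 10.4 to 26.6 FPKM, *Fgfr3* goes down from 9.77 to 3.57 FPKM, *Fgf7* lies below the dotted line at 1 FPKM in both genotypes, and the points of *Fgfr1* lie on each other.

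The bases just before the annotated start of the 3 genes past the fold are shown because the study asks which genes respond to YAP, which has no DNA-binding domain of its own and acts with TEAD factors. The sequences are those of RefSeq on GRCm38.p6, 5′ to 3′ on the strand of the gene, with 250 bases that end just before the start. They lie at chr13:118714449-118714698 on the plus strand for *Fgf10*, at chr11:33147401-33147650 on the minus strand for *Fgf18*, and at chr5:33721474-33721723 on the plus strand for the first of 2 windows of *Fgfr3*. Capitals would mark the TEAD core CATTCC on either strand, and none of these 3 holds it.
Fgf10: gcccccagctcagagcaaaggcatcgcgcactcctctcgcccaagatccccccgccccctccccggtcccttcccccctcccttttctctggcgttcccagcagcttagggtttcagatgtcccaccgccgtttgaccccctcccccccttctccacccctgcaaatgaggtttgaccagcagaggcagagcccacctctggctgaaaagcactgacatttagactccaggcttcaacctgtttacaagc
Fgf18: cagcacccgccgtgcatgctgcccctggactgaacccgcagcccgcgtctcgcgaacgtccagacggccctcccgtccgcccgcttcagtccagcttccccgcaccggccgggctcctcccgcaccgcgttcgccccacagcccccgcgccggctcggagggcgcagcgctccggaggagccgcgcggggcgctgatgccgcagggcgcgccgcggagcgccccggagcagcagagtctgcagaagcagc
Fgfr3: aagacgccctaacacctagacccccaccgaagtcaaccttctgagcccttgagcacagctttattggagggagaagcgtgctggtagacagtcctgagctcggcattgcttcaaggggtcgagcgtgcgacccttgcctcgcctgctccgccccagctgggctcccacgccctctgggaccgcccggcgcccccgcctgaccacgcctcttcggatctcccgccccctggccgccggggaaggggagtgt

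The search itself covered the whole window of 300 bases, 250 before and 50 after the start, for the 8 of 10 genes that have one in the RefSeq table. The TEAD core stood in 1 of the 8, *Fgfr4*, where it covers bases 3 to 8 of the transcript, and in 14.7% of all 32851 windows.
Fgfr4: cagttgcagggaCATTCCtggctcttcggc
*Fgfr4* itself differed by 1.11-fold between the genotypes, and the genes past the fold had no match in this window, which says nothing of sites farther away. The windows differ widely in base composition. The dinucleotide CG occurs 47 times in the window of *Fgf18* and 26 times in the first window of *Fgfr3*, 10 times in that of *Fgf10* and 4 times in that of *Fgfr2*, beside a median of 7 over all windows. The bases just after the start in the *Fgfr2* window were not found in a GENCODE transcript of the gene, unlike those of the other members' windows. That search asked only whether the bases occur anywhere in a transcript, so it does not place a start. The bases before the start of *Fgfr2* begin at 130266809, next to the end of its locus at 130266808. Those shown for *Fgf10* end at 118714698, inside its locus, which begins at 118712481. The gene in GENCODE begins at 118669791, so the window of *Fgf10* is not at the outermost start.

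*Fgf10*, the ligand that draws lung buds outward, had 10.4 FPKM in control lungs and 26.6 FPKM in the mutants, a log2 ratio of 1.35. Its locus lies on chromosome 13 from 118712481 to 118792573 (GRCm38, plus strand), and GENCODE gives it 1 coding transcript of 3 exons. It was the most abundant of the 5 ligands in both genotypes. The noncoding gene *Gm16263* overlaps it on the other strand, as *G630022F23Rik* does *Fgfr3*, and whether the counting used strand is not given in the sources used here. Among the 5141 loci whose mean level was within 2-fold of that of *Fgf10*, 29 including *Fgf10* had as high a ratio. Over all 12701 loci, 1.40% did.

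The other ligands were at 3.60 FPKM or lower in both genotypes. *Fgf18*, a ligand of the lung mesenchyme, had 3.58 FPKM in control lungs and 2.21 FPKM in the mutants, a log2 ratio of -0.70 (chromosome 11, 33116933 to 33147843). Among 2907 loci of like level, 153 had as low a ratio, so a difference of this size was more common there than that of *Fgf10* at its own level. With 1 FPKM added to both values its log2 ratio was -0.51, under the fold.

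*Fgf9*, the mesothelial and epithelial ligand (chromosome 14, 58071113 to 58112787), stood at 3.13 FPKM in control lungs and 3.60 FPKM in the mutants. The log2 ratio was 0.20, and 28.7% of all loci differed at least as much in one direction or the other. *Fgf1*, a ligand that binds all the FGF receptors, was at 0.894 and 1.32 FPKM, a log2 ratio of 0.56 that was just short of the fold (chromosome 18, 38838673 to 38971274, coordinates that the table also gives to *Gm5820*). At this low level such a ratio was common, since 27.1% of 1404 loci of like level differed at least as much. The locus of *Fgf1* is 1.46 times as long as the gene in GENCODE and overlaps the coding gene *Arhgap26* on the other strand.

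*Fgf7*, a mesenchymal ligand that shares the epithelial form of FGFR2 with FGF10, was listed at 0.163 FPKM in control lungs and 0.151 FPKM in the mutants, under the 1 FPKM average, so the counts of higher and lower genes above leave it out. The table gives it the coordinates 125830304 to 126152004 on chromosome 2, a stretch 5.69 times as long as the gene in GENCODE (126034658 to 126091185). *Cops2*, *Galk2* and *Fam227b* carry the same coordinates in the table, each with values of its own. For *Galk2* these were 11.2 FPKM in control lungs and 11.8 FPKM in the mutants, and *Fam227b* was listed at 0 in both. How reads in this stretch were divided between the 4 genes is not known.

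Summed over the 5 ligands, the authors' values gave 18.2 FPKM for control lungs and 33.9 FPKM in the mutants. *Fgf10* made up 57.3% of the sum in control and 78.5% in *Yap* mutant lungs. The share of *Fgf18* was 19.7% and 6.54%, and that of *Fgf9* was 17.2% and 10.6%. Shares are tied to each other, so a larger share of *Fgf10* makes the others smaller, and the level of *Fgf9* itself was slightly higher in the mutants.

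**Figure D2:**
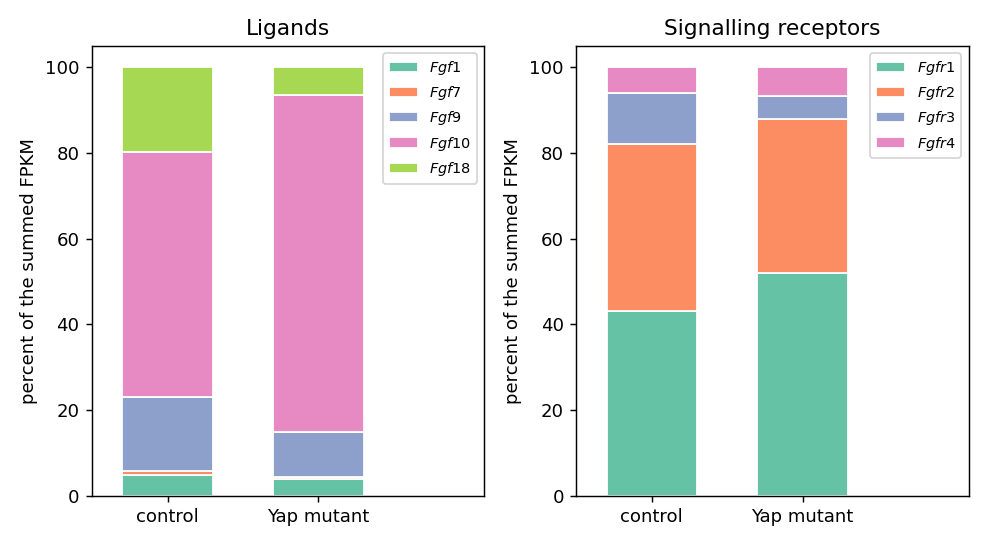
Each ligand's percent of the summed FPKM of the 5 ligands (left) and each receptor's percent of the summed FPKM of the 4 signalling receptors (right), in control and *Yap* mutant lungs, from the authors' group values. *Fgf10* takes 57.3% of the ligand sum in control and 78.5% in *Yap* mutant lungs, and *Fgfr3* takes 11.9% and 5.35% of the receptor sum.

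Among the receptors, *Fgfr3* had the largest difference. This receptor gene, known for restraining bone growth, had 9.77 FPKM in control lungs and 3.57 FPKM in the mutants, a log2 ratio of -1.45 (chromosome 5, 33721724 to 33737068, plus strand). Of 4245 loci of like level, 28 including *Fgfr3* had as low a ratio, and 0.606% of all loci did. In control lungs *Fgfr3* stood above *Fgfr4* at a ratio of 1.97, and in *Yap* mutant lungs the order was the other way, at 0.801. Without a spread between libraries, it cannot be said whether this change of order exceeds the error.

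*Fgfr1*, the main mesenchymal receptor gene, had 35.4 FPKM in control lungs and 34.7 FPKM in the mutants, a log2 ratio of -0.03. It was the highest of the 5 receptor genes in both genotypes (chromosome 8, 25518610 to 25575714), and 84.8% of all loci had at least as large a difference. Its direction depends on the scaling, since dividing each value by its genotype's total gave 0.01.

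*Fgfr2*, whose epithelial splice form is the receptor of FGF10 and FGF7, had 31.8 FPKM in control lungs and 24.1 FPKM in the mutants. The log2 ratio was -0.40, under the fold, and 120 of 4531 loci of like level had as low a ratio. The table has 1 value for the whole locus (chromosome 7, 130162451 to 130266808). This locus is 0.0352 of the length of the gene in GENCODE, which runs on to 133123350. GENCODE lists 17 coding transcripts for the gene, so the epithelial and mesenchymal splice forms cannot be told apart. The same holds for *Fgfr1* and *Fgfr3*, with 9 and 13 coding transcripts.

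*Fgfr4*, known best for control of bile acid synthesis in the liver, had 4.96 FPKM in control lungs and 4.46 FPKM in the mutants, a log2 ratio of -0.15 (chromosome 13, 55152818 to 55168759). *Fgfrl1* encodes a receptor that binds FGFs but lacks the kinase domain. It had 26.2 FPKM in control lungs and 21.4 FPKM in the mutants, a log2 ratio of -0.29 (chromosome 5, 108694229 to 108706950). All 5 receptor genes thus had lower values in the mutants, by between -0.03 and -1.45 on the log2 scale, as deposited. Their direction depends on the scaling. *Fgfr1* turned under division by the totals, and relative to the median of epithelial marker genes *Fgfr1* (0.57), *Fgfr2* (0.20), *Fgfr4* (0.45) and *Fgfrl1* (0.31) were higher. *Fgfr3* was lower under each of the scalings run.

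Summed over *Fgfr1* to *Fgfr4*, the values were 81.9 FPKM in control lungs and 66.8 FPKM in the mutants. *Fgfr1* made up 43.2% of this sum in control and 51.9% in *Yap* mutant lungs, *Fgfr2* 38.8% and 36.0%, *Fgfr3* 11.9% and 5.35%, and *Fgfr4* 6.05% and 6.68%. Set against its main receptor gene, *Fgf10* was at 0.328 of the level of *Fgfr2* in control and at 1.10 of it in *Yap* mutant lungs. This ratio of mRNA levels in whole lungs was 3.36 times as high in the mutants, with the ligand higher and the receptor lower.

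**Figure D3:**
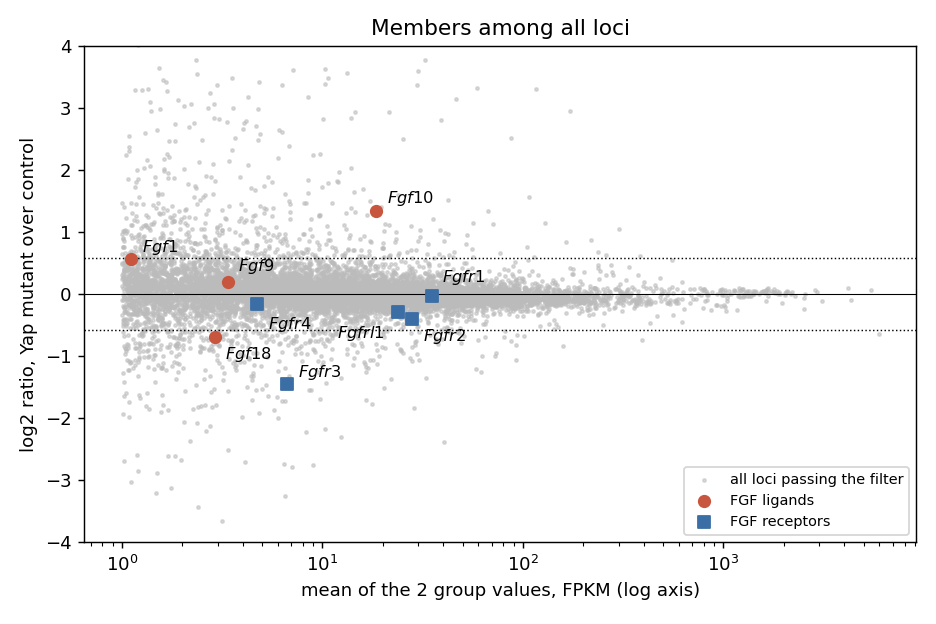
Log2 ratio of *Yap* mutant over control against the mean of the 2 group values (FPKM, log axis) for every locus whose mean reached 1 FPKM (grey), with ligands as circles and receptors as squares, and dotted lines at 1.5-fold. *Fgf10* (1.35) and *Fgfr3* (-1.45) lie at the edges of the grey cloud at their level, *Fgf18* lies below the lower line among other loci, and 18 grey points lie beyond the axis.

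In whole lungs, fewer cells of a type cannot be told apart from less RNA per cell, so the lists of cell type markers are given beside these genes. Of 15 epithelial markers 12 were lower, 9 of them past the fold, and 3 were higher, 2 of them past it. Over all loci, 3.42% were lower past the fold and 4.54% higher. The median log2 ratio of the epithelial markers was -0.60, their sum was 569 and 553 FPKM, and no marker was at 0. The abundant *Cldn6* was at 98.0 and 64.7 FPKM in control and *Yap* mutant lungs, while *Id2* was higher, at 118 and 211 FPKM. *Sftpc*, named after its values were seen, was also higher, at 28.4 and 55.8 FPKM. Of 13 loci of mesenchymal markers 4 were lower, 2 of them past the fold beside the 3.42% of all loci, and 9 higher. Their median was 0.06. *Col3a1* was at 376 and 371 FPKM and *Vim* at 325 and 338 FPKM. Chosen after their values were seen, *Twist2* had a log2 ratio of -0.83 and *Tcf21* had -0.55 and -0.92 at its 2 loci, so the list was not level throughout. For markers of the mesothelium, a source of *Fgf9*, 3 were higher and 2 lower of 5 loci, with a median of 0.31. *Upk3b* had a log2 ratio of 0.31, and *Wt1* was at 10.3 and 12.9 FPKM, while *Krt19* (-0.50) and *Upk1b* (-0.11), named after their values were seen, were the lower ones. The part of cell proportions in the differences of the FGF genes was not tested.

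Against these lists, *Fgfr3* lay 0.85 below the epithelial median on the log2 scale, while *Fgfr2* lay 0.20 above it. *Fgf10* lay 1.29 above the mesenchymal median, *Fgf9* lay 0.11 below the mesothelial median, and *Fgf18* lay 0.75 below the mesenchymal one. Relative to the epithelial median, 2 of the 9 genes were lower and 7 higher, and 1 lower and 3 higher were past the fold. Of 12701 loci, 112 were lower and 6634 higher past it, 53.1% in either direction.

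**Figure D4:**
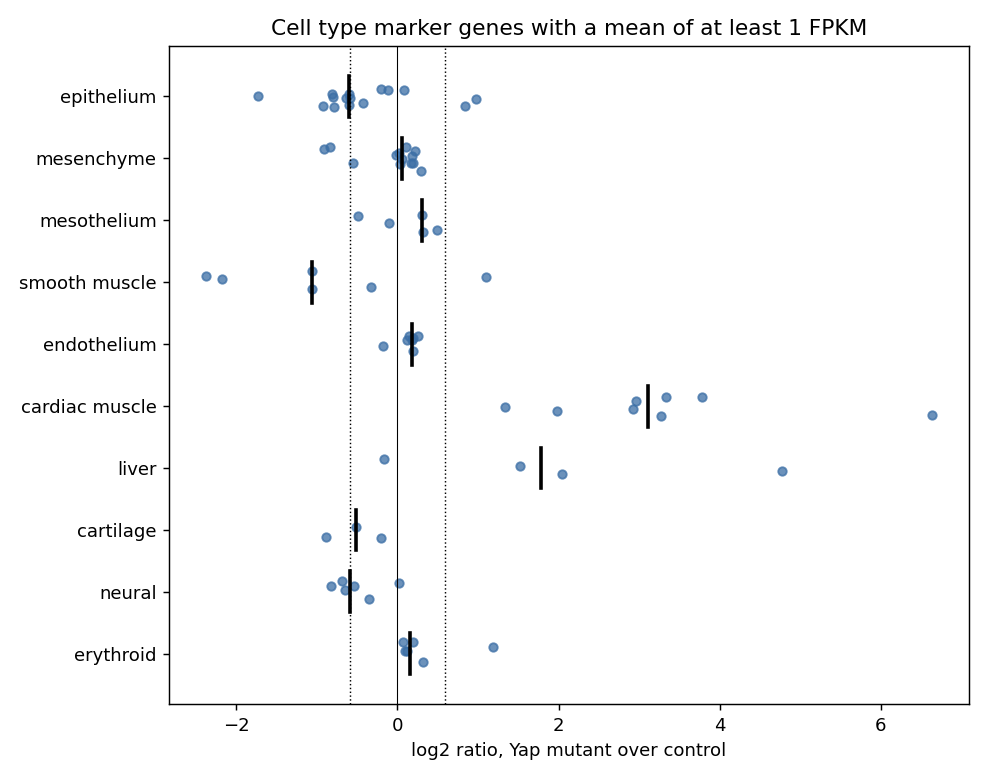
Log2 ratio of *Yap* mutant over control for cell type marker genes with a mean of at least 1 FPKM, with each list's median as a black bar and dotted lines at 1.5-fold. The epithelial median lies at -0.60 and the mesenchymal one at 0.06, and all the cardiac muscle genes lie to the right, with a median of 3.12.

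Other marker lists also differed between the genotypes. Of 10 cardiac muscle genes, none of which was at 0, 8 averaged at least 1 FPKM. All 8 were higher past the fold, beside 4.54% of all loci, with a median log2 ratio of 3.12. The summed level of the list was 99.8 FPKM for control lungs and 673 FPKM in the mutants. *Myl7* was at 39.3 and 306 FPKM and *Actc1* at 38.0 and 96.1 FPKM. FGF10 is also made by heart progenitor cells, whose gene *Isl1*, named after its values were seen, was at 5.93 and 7.27 FPKM. The part of heart tissue in the difference of *Fgf10* was not tested. Of 6 smooth muscle genes 4 were lower past the fold, beside 3.42% of all loci, and *Des* was higher past it, beside 4.54%. Their median was -1.06, with *Acta2* at 125.2 and 59.9 FPKM and *Actg2* at 68.0 and 13.1 FPKM. Of 9 liver genes 5 averaged under 1 FPKM, and 3 of the other 4 were higher past the fold, beside 4.54% of all loci, with *Afp* at 5.42 and 22.3 FPKM and *Ttr* at 0.492 and 13.5 FPKM. The remaining one, *Alb*, the main plasma protein gene of hepatocytes, was at 1.28 and 1.14 FPKM. Cartilage cells of the skeleton are a known site of *Fgfr3*, and cartilage genes had a median of -0.51 over 3 loci, all lower. *Col2a1* was at 35.1 and 24.7 FPKM and *Hapln1* at 10.9 and 9.54 FPKM. *Col9a1*, named after its values were seen, was at 9.57 and 5.17 FPKM. It was the only 1 of the 3 past the fold, beside 3.42% of all loci lower past it. The part of cartilage in the difference of *Fgfr3* was not tested. Neural genes had a median of -0.59 over 6 loci (*Tubb3* 4.46 and 2.52 FPKM). The endothelial median was 0.19 over 7 loci (*Cldn5* 47.9 and 55.0 FPKM, *Cdh5* 36.3 and 39.9 FPKM) and the erythroid median 0.15 over 6 loci (*Hbb-y* 4020 and 4303 FPKM).

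Other genes of the pathway were taken from lists. Of the 17 other FGF genes, 3 averaged at least 1 FPKM, and 1 was past the fold, beside the 7.96% of all loci. This was *Fgf12*, an FGF that stays inside the cell and binds sodium channels in heart and neurons, at 0.962 FPKM in control lungs and 2.58 FPKM in the mutants. *Fgf11* and *Fgf13*, of the same intracellular group, had log2 ratios of 0.35 and -0.11.

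Of 23 genes for co-receptors and heparan sulphate, which holds FGFs at the cell surface, 16 were lower and 7 higher, and 2 were past the fold, both higher, which is near the 7.96% of all loci past it. *Flrt3*, a membrane protein that binds FGF receptors, was at 5.02 FPKM in control lungs and 7.63 FPKM in the mutants, only just past the fold at 1.52-fold. *Hs3st1*, a heparan sulphate sulphotransferase, was at 1.71 and 2.81 FPKM. Of 22 signal transduction genes 0 were past the fold, beside 7.96% of all loci, a share that amounts to few genes in a list of 22. The median log2 ratio of this list was -0.01. The locus that holds *Shc1* and *Pygo2* was at 73.9 and 74.3 FPKM.

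Among genes that respond to FGF signalling or dampen it, 12 of 14 were higher in the mutants and the median log2 ratio was 0.39, beside 48.2% of all loci that were higher. Past the fold were 4 higher genes and 1 lower gene, beside 4.54% of all loci higher and 3.42% lower. *Dusp6*, an ERK phosphatase induced by ERK, was at 31.8 FPKM in control lungs and 48.1 FPKM in the mutants, 1.51-fold and only just past the fold. *Dusp5*, a related phosphatase, was at 2.92 and 5.35 FPKM, and *Spred3*, an inhibitor of the pathway, at 1.34 and 2.28 FPKM.

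The transcription factor genes *Etv4* and *Etv5*, both known targets of FGF10 in bud tips, went opposite ways. *Etv4* was at 13.0 FPKM in control lungs and 21.1 FPKM in the mutants, a log2 ratio of 0.70, and *Etv5* was at 86.9 and 36.3 FPKM, a log2 ratio of -1.26. The feedback inhibitors *Spry2* and *Spry4* had log2 ratios of 0.26 and 0.37, under the fold.

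**Figure D5:**
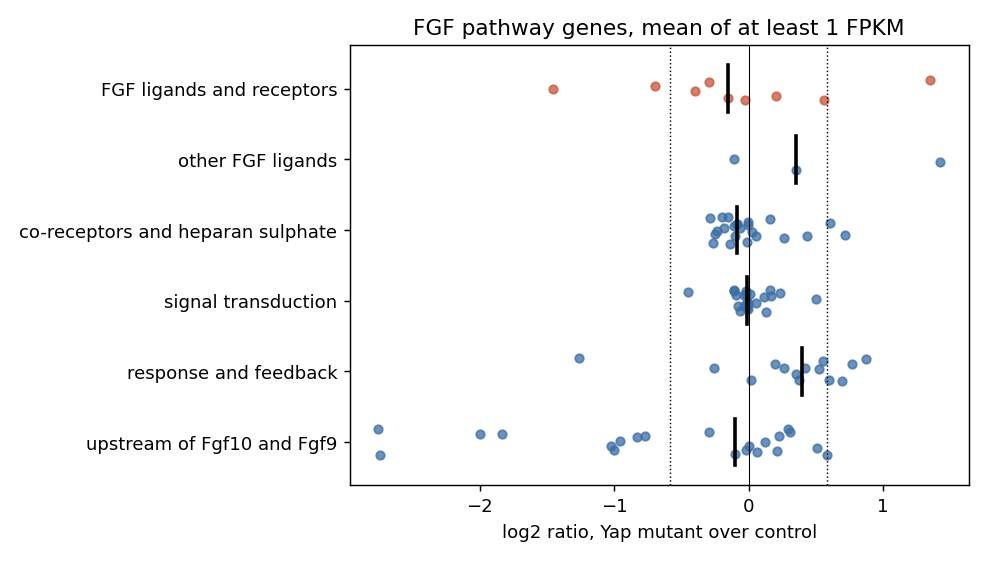
Log2 ratio of *Yap* mutant over control for the FGF ligands and receptors (red) and the genes of 5 pathway lists (blue) with a mean of at least 1 FPKM, with medians as black bars and dotted lines at 1.5-fold. Signal transduction genes cluster around a median of -0.01, and the response and feedback genes lie mostly to the right of 0 with *Etv5* alone at -1.26.

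Of 21 genes that act upstream of *Fgf10* and *Fgf9*, 9 were lower past the fold and 0 were higher past it. Over all loci, 3.42% were lower past it and 4.54% higher. *Shh*, the epithelial Hedgehog ligand, was at 15.6 FPKM in control lungs and 2.31 FPKM in the mutants, a log2 ratio of -2.76, with 1 copy lost to the Cre allele by design. The Hedgehog pathway genes *Ptch1* (-1.83), *Hhip* (-2.74) and *Gli1* (-1.03) were lower on the log2 scale too. The mesenchymal factor gene *Foxf1* was at 83.5 and 41.6 FPKM. Also past the fold were the ligand genes *Wnt2* (-0.77) and *Wnt5a* (-0.96) and the BMP antagonist gene *Nog* (-0.83). *Bmp4*, a ligand made in bud tips in response to FGF10, was at 22.5 FPKM in control lungs and 33.7 FPKM in the mutants, a log2 ratio of 0.58 that just missed the fold, and it was named after its value was seen.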

How the data were processed

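The authors' deposited table of all loci gives 1 FPKM value per genotype, summarised by the authors over 3 libraries. The unit is not named in the file and was read from its Cuffdiff layout. Per the labels' processing notes, TopHat, Cuffdiff and mm10 were used, with roles not given in the sources used here, and the paper names stranded paired-end libraries and the Maverix platform. The deposited columns of fold changes and p-values, and the authors' list of changed loci, were not used. Depth per library is not known.

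From the 2 values a log2 ratio was computed with no pseudocount. Loci with both values above 0 and a mean of at least 1 FPKM were kept, and a 1.5-fold difference was counted. A like level means a mean within 2-fold. Locus starts count from 0 and were raised by 1. The ratio and the fold call were run on control values multiplied by known folds, without noise. This checks the arithmetic only and gives no error. The members and lists were chosen with earlier results of these data known. Named were the 10 genes, pathway genes past the fold or the 2 highest of a list where fewer than 2 were past it, *Shh*, *Etv4*, *Etv5*, *Spry2*, *Spry4* and *Dusp6*, and the 2 highest markers of each list. A few genes that this rule names are not reported here. Pathway lists held 105 genes. Promoter windows were from RefSeq (GRCm38.p6) and transcripts from GENCODE. Python 3.11.15, numpy 2.4.6, pandas 2.3.3 and matplotlib 3.10.9 were used. Alternatives were pseudocounts of 0.1 and 1 FPKM, other minimum means, scalings and folds.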

Additional observations from a re-analysis of the deposited data

How the results depend on the processing

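No paired analysis was possible because the table holds 1 value per genotype and none per library. For this reason no replicate could be left out. *Fgf10* and *Fgfr3* kept their direction and stayed past 1.5-fold under both pseudocounts and all 4 scalings. The pathway lists held 104 loci besides the members, and fewer of them reached the minimum mean. With 1 FPKM added to both values, 2 members and 13 other pathway genes were past the fold, beside 689 of 12716 loci (5.42%). A mean of at least 5 FPKM left 1 member higher, and 395 of 9537 loci (4.14%) past the fold. With no such minimum, 7 members were lower, *Fgf7* among them. In that setting 28 other pathway genes were past the fold, beside 3691 of 18248 loci (20.2%). With a log2 difference of 0.32 as the limit, 5 members and 28 other pathway genes were past it, beside 2139 of 12701 loci (16.8%). At 2-fold these were 2 members and 8 other pathway genes, beside 445 of 12701 loci (3.50%). Relative to the epithelial median, 2 members were lower and 7 higher. Past the fold were then 50 other pathway genes, beside 6746 of 12701 loci (53.1%). With the values as deposited these were 17 genes, beside 1011 of 12701 loci (7.96%). This scaling adds 0.60 to each log2 ratio. With each value divided by its genotype's total, *Fgf1* (0.61) passed the fold too, which made 4 members, beside 8.09% of 12701 loci. Low genes are the least certain, since depth is unknown.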

Other observations

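Several FGF genes below an average of 1 FPKM differed by large ratios at levels too low to count. *Fgfbp1*, which encodes a secreted protein that carries FGFs, was listed at 0.853 FPKM in control lungs and 0.0296 FPKM in the mutants. *Fgf20*, a ligand, was listed at 0.0904 and 0.983 FPKM, and *Fgf5* at 0.961 and 0.425 FPKM. *Fgf2* was at 1.18 and 0.660 FPKM. *Fgf22* was listed at 0 in *Yap* mutant lungs and *Fgf4* at 0 in control lungs, while *Fgf6* was listed at 0 in both. These genes were singled out after their values were seen, and no error is known for any of them.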
